A study of Homo sapiens with 12 samples.

Results

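MCL1 and 9 further genes of the BCL2 family were followed by RNA sequencing in HEK293, a line derived from human embryonic kidney. The 10 genes were MCL1, BCL2, BCL2L1, BCL2L11, BBC3, PMAIP1, BAX, BAK1, BAD and BID. They were taken by name, with earlier results of these data known, and all were found by Ensembl identifier among the 26058 genes listed. RPKM values are read numbers scaled to the length of the gene and the size of the library. All 10 had a mean of at least 0.5 RPKM over the 12 libraries, the filter that left 22067 genes for testing. Wild-type cells (WT) were compared with AMPKα double knockout cells (AMPK KO), which were made with CRISPR and lack both catalytic subunits of the kinase. All cells had been starved of serum for 24 h. Each line was given solvent only (DMSO), solvent and then EGF (DMSO+EGF), or 25 µM cordycepin and then EGF (cordycepin+EGF), and EGF was present for the last 30 min of a 50 min treatment. Cordycepin is 3′-deoxyadenosine, an adenosine analogue. The EGF concentration was stated as 15 nM in one place and as 15 µM in another, and the time in DMSO alone was also stated in more than one way. There were 2 libraries per group, numbered 2 and 3, which the study called biological replicates. Whether the AMPK KO line was a single clone was not given in the sources used here, so the loss of AMPK and other differences between the lines cannot be told apart.

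BCL2 family proteins decide whether the outer membrane of mitochondria stays intact. MCL1, BCL2 and BCL2L1 (BCL-XL) keep it closed by holding their relatives in check. BAX and BAK1 are the effectors that form pores in it. The BH3-only proteins BCL2L11 (BIM), BBC3 (PUMA), PMAIP1 (NOXA), BAD and BID set the effectors free or switch them on. PMAIP1 binds mainly to MCL1, and both are known for short-lived products. Growth factor signalling is known to raise MCL1 and to restrain BCL2L11 and BAD.

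The promoters of PMAIP1 and BAX are shown because these members had the lowest fold changes with cordycepin and the highest between the cell lines. Of the 10 members, 9 had an entry in the RefSeq promoter table for GRCh38.p14, and MCL1 had none. The 250 bases before the RefSeq start site are given, 5′ to 3′ on the strand of the gene, which is the plus strand for both. For PMAIP1 they lie at chr18:59899746-59899995 and for BAX at chr19:48954625-48954874.
PMAIP1: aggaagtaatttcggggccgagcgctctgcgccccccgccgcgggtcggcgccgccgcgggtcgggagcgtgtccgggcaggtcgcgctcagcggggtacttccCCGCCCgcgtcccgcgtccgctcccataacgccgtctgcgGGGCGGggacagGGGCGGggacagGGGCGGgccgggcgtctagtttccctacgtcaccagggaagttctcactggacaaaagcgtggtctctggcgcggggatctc
BAX: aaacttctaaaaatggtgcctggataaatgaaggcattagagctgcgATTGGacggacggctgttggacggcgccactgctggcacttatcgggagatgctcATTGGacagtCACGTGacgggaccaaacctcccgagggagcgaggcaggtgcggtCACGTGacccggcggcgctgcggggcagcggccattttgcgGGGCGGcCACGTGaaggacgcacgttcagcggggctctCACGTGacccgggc
Capitals mark matches, on either strand, to the motifs searched, which were the GC box GGGCGG, the E-box CACGTG, the CCAAT box, the TATA box TATAAA, the ETS site CCGGAAG, the cyclic AMP element TGACGTCA, the EGR site GCGTGGGCG and the CArG box bound by SRF. No matches in these 2 promoters overlapped. The PMAIP1 promoter held 4 GC boxes, against at least 1 in 42.6% and at least 4 in 7.63% of the 35116 promoters searched. The BAX promoter held 4 E-boxes, the letters bound by MYC and USF proteins, beside 1 GC box and 2 CCAAT boxes. The BAX gene as listed below starts at 48954815, before the RefSeq start, so the end of this stretch lies inside it. That part holds the GC box (52 to 47 bases before the RefSeq start) and the E-boxes at 45 to 40 and 14 to 9. At least 1 E-box was found in 6.34% of promoters, and 4 or more in 5 promoters (0.0142%). A CCAAT box was found in 32.01%, a TATA box in 10.7%, an ETS site in 8.52%, a cyclic AMP element in 1.65% and an EGR site in 0.720% of promoters. A CArG box was found in 1.16% of promoters and, among the members, in that of BCL2 alone, from 56 to 47 bases before the start. A match describes letters and does not show that a factor binds.

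The libraries differed in depth and in how well they agreed. WT DMSO replicate 3 was shallow, with 3806335 reads recovered from its RPKM values, whereas the other 11 libraries had 12016743 to 25104904. Its correlation with replicate 2 across genes was 0.918, while the replicates of each further group correlated at 0.960 to 0.977 (genes are not independent replicates). In WT DMSO replicate 3 the members had from 28 reads (BAD) to 853 reads (MCL1), so the values most affected by it are also given without it. To check the labels, PRKAA1, one of the targeted subunit genes, had 11.2 to 21.9 RPKM in WT and 7.03 to 8.51 in AMPK KO. PRKAA2, the other, had 6.78 to 12.1 and 5.39 to 7.43 RPKM, which overlap. Of the 7 genes set down as HEK293 markers, VIM, KRT18, KRT8 and NEFL had at least 7.998 RPKM in every library, whereas NEFM, PAX2 and LHX1 stayed below 1. The leucocyte marker PTPRC reached at most 0.0610 RPKM, whereas CD14, of the same blood list, had 0.517 to 2.84.

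In RPKM, which is counted per length, the members formed a high and a low set. Over the 12 libraries the mean level was 50.6 RPKM for BAX, 47.9 for PMAIP1 and 37.1 for MCL1. BAX was above PMAIP1 in 7 of the 12 libraries and PMAIP1 above MCL1 in 9, so the order of these neighbours was not fixed. BAK1 followed at 12.96 RPKM, below MCL1 in all 12, and then BCL2L11 at 9.84, below BAK1 in 11. BAD had a mean of 5.04 RPKM and BBC3 of 3.91, with BAD higher in every library. BCL2L1 at 3.06, BID at 2.99 and BCL2 at 2.46 RPKM changed places from library to library. MCL1 was the most abundant of the anti-apoptotic transcripts, with 7.67 to 16.1 times the RPKM of BCL2L1 within a library.

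On GRCh38, MCL1 (ENSG00000143384) is on chromosome 1 from 150560895 to 150579738, minus strand, and PMAIP1 (ENSG00000141682) is on chromosome 18 from 59899996 to 59904305, plus strand. BAX (ENSG00000087088) is on chromosome 19 from 48954815 to 48961798, plus strand, and BID (ENSG00000015475) is on chromosome 22 from 17734138 to 17774770, minus strand. Some members share exon sequence with another gene. GPR137 on the opposite strand covers 23.7% of the exon bases of BAD and had a mean of 5.21 RPKM. The antisense gene ABALON covers 41.3% of those of BCL2L1 and had 0.306 RPKM. MIR4435-2HG, also on the opposite strand, covers 10.8% of those of BCL2L11 and had 1.41 RPKM. The pseudogene BAK1P1 was listed at a mean of 9.72 RPKM, so reads may be split between it and BAK1. The libraries were stranded, but the strand setting used in counting was not given in the sources used here, and the values of BAD, BCL2L1, BCL2L11 and BAK1 are uncertain to that extent.

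**Figure D1:**
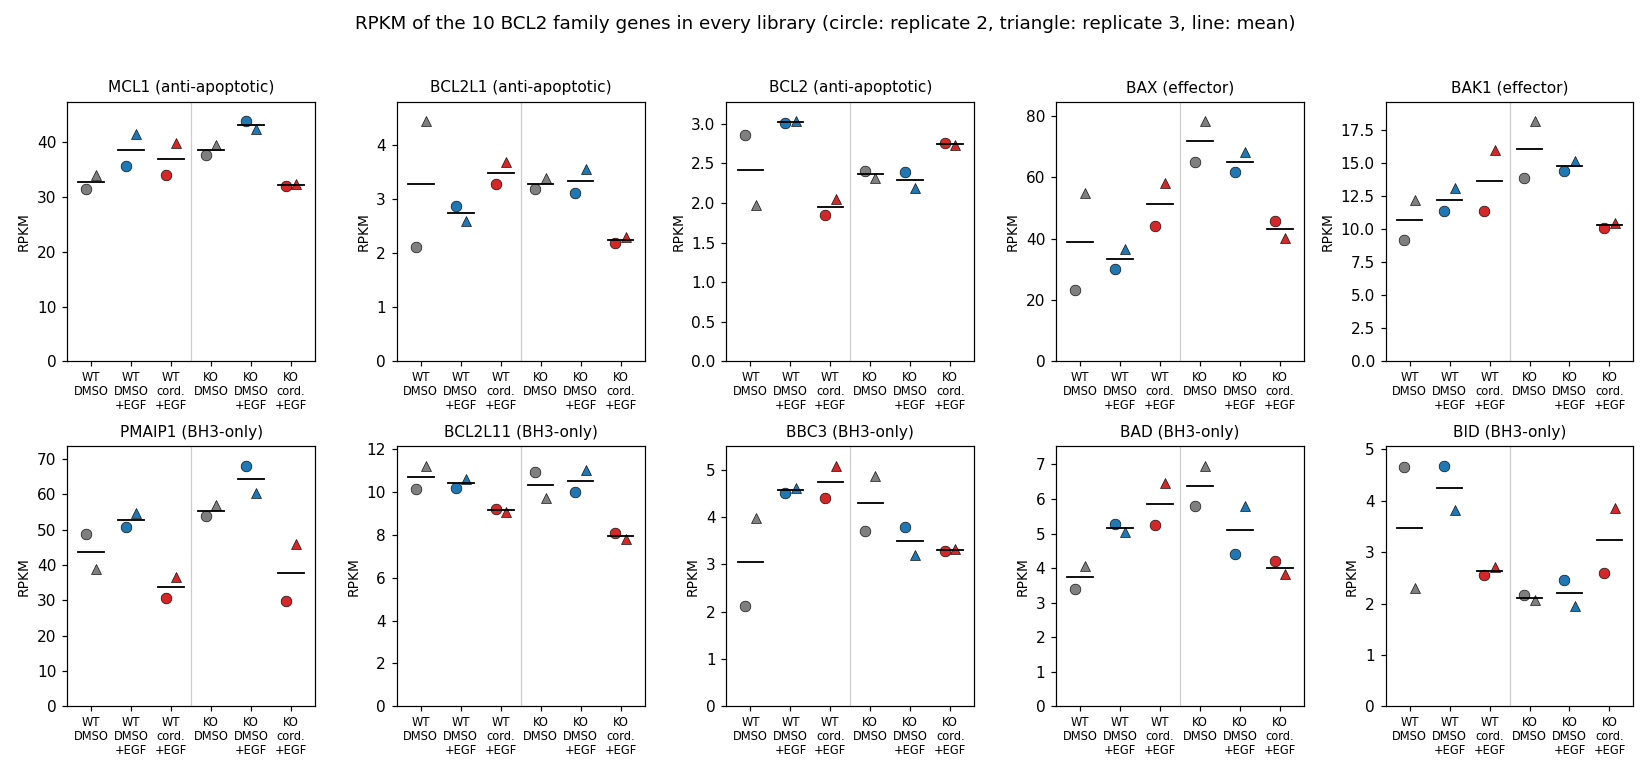
RPKM of each of the 10 genes (vertical axes, linear, starting at 0) in the 12 libraries, by group (horizontal axes, cord. stands for cordycepin and KO for AMPK KO). Circles are replicate 2, triangles replicate 3 and lines the mean of both, and PMAIP1 and BCL2L11 lie lower in all 4 cordycepin libraries than in the 4 DMSO+EGF libraries.

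Across the 9 comparisons made, 0 of the 10 members passed an adjusted p of 0.05 over all genes tested (limma, two-sided, Benjamini-Hochberg within each comparison), against 0% to 1.74% of all genes. With limma on the recovered reads (voom), between 0 and 3 members passed in a comparison, while 0 to 2325 of all genes did. BCL2L11 did not give whole reads and was not part of that fit. The 3 members passed for the cordycepin difference between the lines, where 1975 of all genes did. For each comparison the values are given below, with the number of members at an unadjusted p under 0.05 and the share of all genes called by the same rule. In counts, overlap of groups was judged on RPKM scaled by the upper quartile, while the RPKM printed are unscaled. Missing the threshold with 2 libraries a group does not show that levels were equal. A lower level in all cells and in only some of them cannot be told apart in these bulk samples. Values are relative to each library, so a general change in RNA per cell would not show.

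To see which members differed with cordycepin under EGF, cordycepin+EGF was set against DMSO+EGF in each line. PMAIP1, which encodes the MCL1 antagonist NOXA, had the lowest log2 fold change of the members in both lines. In WT it had 50.8 and 54.8 RPKM in DMSO+EGF and 30.6 and 36.7 with cordycepin. In the AMPK KO line it had 68.1 and 60.3 RPKM in DMSO+EGF and 29.7 and 45.9 with cordycepin. All 4 cordycepin libraries were thus below all 4 DMSO+EGF libraries, as in 2% of all genes. The log2 fold change was -0.60 (adjusted p = 0.267, SE 0.197) in WT and -0.74 (adjusted p = 0.0949, SE 0.197) in AMPK KO. The adjusted test was passed in AMPK KO with array weights (adjusted p = 0.0436) and with voom (adjusted p = 0.0283). Under these settings 1193 and 1264 of all genes passed in AMPK KO, against 104 in the analysis reported. The value there ran from -1.04 without cordycepin+EGF replicate 3 to -0.44 without replicate 2. A difference between the lines was not detected (-0.14, 95% interval -0.77 to 0.50), and its sign turned (0.17) without AMPK KO cordycepin+EGF replicate 2. PMAIP1 also had the lowest GC content of the members, 36.7% of its longest transcript. Across genes, the log2 fold change correlated with GC content at 0.164 in WT and 0.117 in AMPK KO. The 1102 genes in the GC bin of PMAIP1 had median log2 fold changes of -0.04 and -0.07, and after centring within GC bins PMAIP1 stood at -0.54 in WT and -0.65 in AMPK KO.

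MCL1, the partner of PMAIP1, had lower values with cordycepin in AMPK KO and overlapping values in WT. In AMPK KO it had 43.9 and 42.4 RPKM in DMSO+EGF and 31.99 and 32.4 with cordycepin, or 43.2 ± 1.06 against 32.2 ± 0.287 (SD, n = 2). The log2 fold change was -0.37 (adjusted p = 0.113, SE 0.109), with a range of -0.39 to -0.35 when 1 library was left out. In WT it had 35.7 and 41.6 RPKM in DMSO+EGF and 34.0 and 39.8 with cordycepin, a log2 fold change of -0.02 (adjusted p = 0.932, SE 0.109). Its direction in WT turned without DMSO+EGF replicate 3 or without cordycepin+EGF replicate 2. The difference between the lines was -0.35 (95% interval -0.70 to 0.0023, adjusted p = 0.237). BCL2L11, which encodes the BH3-only activator BIM, resembled PMAIP1 in that its cordycepin libraries, at 7.80 to 9.22 RPKM, lay below those of DMSO+EGF, at 9.98 to 11.03 RPKM, over both lines. These 2 were the only members separated in this way, and 0 members were separated with cordycepin higher, as 5.64% of all genes were. Its log2 fold change was -0.13 (adjusted p = 0.563) in WT and -0.33 (adjusted p = 0.146, SE 0.114) in AMPK KO.

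The effectors and the remaining members had opposite signs in the cell lines in the analysis reported. For BAK1, BAD and BBC3 this depended on the setting or on 1 library, as given below. BAX, a pore-forming effector, had 30.1 and 36.5 RPKM in WT with DMSO+EGF and 44.2 and 58.2 with cordycepin. The AMPK KO libraries had 61.8 and 68.3 RPKM in DMSO+EGF and 45.9 and 40.3 with cordycepin, so that the lines lay far apart in DMSO+EGF and close together with cordycepin. Its log2 fold changes were 0.65 (SE 0.326) and -0.54 (SE 0.326), and the difference between them was -1.19 (95% interval -2.23 to -0.15, adjusted p = 0.191). BCL2, a survival gene, had the reverse signs, at a lower level and without the lines coming close together with cordycepin. It had 3.01 and 3.04 RPKM in WT with DMSO+EGF and 1.85 and 2.05 with cordycepin, and in AMPK KO 2.39 and 2.19 in DMSO+EGF and 2.76 and 2.73 with cordycepin. Its log2 fold change was -0.49 in WT (adjusted p = 0.279, SE 0.176) and 0.26 in AMPK KO (adjusted p = 0.413, SE 0.176), a difference of 0.75 (adjusted p = 0.151).

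BID, whose product links death receptors to mitochondria, had 4.68 and 3.82 RPKM in WT with DMSO+EGF and 2.56 and 2.71 with cordycepin. In AMPK KO it had 2.45 and 1.95 RPKM in DMSO+EGF and 2.60 and 3.86 with cordycepin. As with BCL2, the 2 libraries of each group did not overlap in either line, and the difference between the lines was 1.05 (adjusted p = 0.191). With voom, BCL2, BAX and BID passed the adjusted test of this difference (adjusted p = 0.0246, 0.0451 and 0.0438), as did 1975 of all genes. BAX also passed in a fit of only the compared groups (adjusted p = 0.0409), where 1128 of all genes did. BAK1, the other effector, had a log2 fold change of -0.45 (adjusted p = 0.210) in AMPK KO and 0.18 in WT. Its WT groups overlapped, and the WT value turned to -0.04 without cordycepin+EGF replicate 3. BCL2L1, which encodes BCL-XL, had -0.44 (adjusted p = 0.348) and 0.34 (adjusted p = 0.521). The BH3-only gene BAD had -0.26 and 0.20, and BBC3 had -0.03 and 0.09. The AMPK KO value of BBC3 turned to 0.08 without DMSO+EGF replicate 2. After centring within GC bins the WT values turned to -0.0033 for BAD and -0.12 for BBC3, while the AMPK KO values were -0.37 and -0.14, so that both members then had the same sign in the lines.

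In counts, 2 members (BCL2 and PMAIP1) had an unadjusted p under 0.05 for cordycepin in WT, where 16% of all genes did and 0.00453% passed the adjusted test. In AMPK KO there were 4 (MCL1, BCL2L11, PMAIP1 and BAK1), where 21.8% of all genes did and 0.471% passed. For the difference between the lines there were also 4 (BCL2, BAX, BAK1 and BID), where 21.4% of all genes did and 0% passed. The groups did not overlap for 8 members in WT, with 53.9% of all genes, and for 9 in AMPK KO, with 59.2%. For 5 members (BCL2, BCL2L1, BAX, BAD and BID) they did not overlap in either line and lay in opposite directions, as for 19.2% of all genes, and for 2 (BCL2L11 and PMAIP1) in the same direction, as for 12.6%. These counts are for scaled RPKM, and in unscaled RPKM the WT groups of BBC3 and BAD overlapped. The median log2 fold change of the members was 0.03 in WT and -0.35 in AMPK KO, beside 0.03 and 0.06 over all genes.

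**Figure D2:**
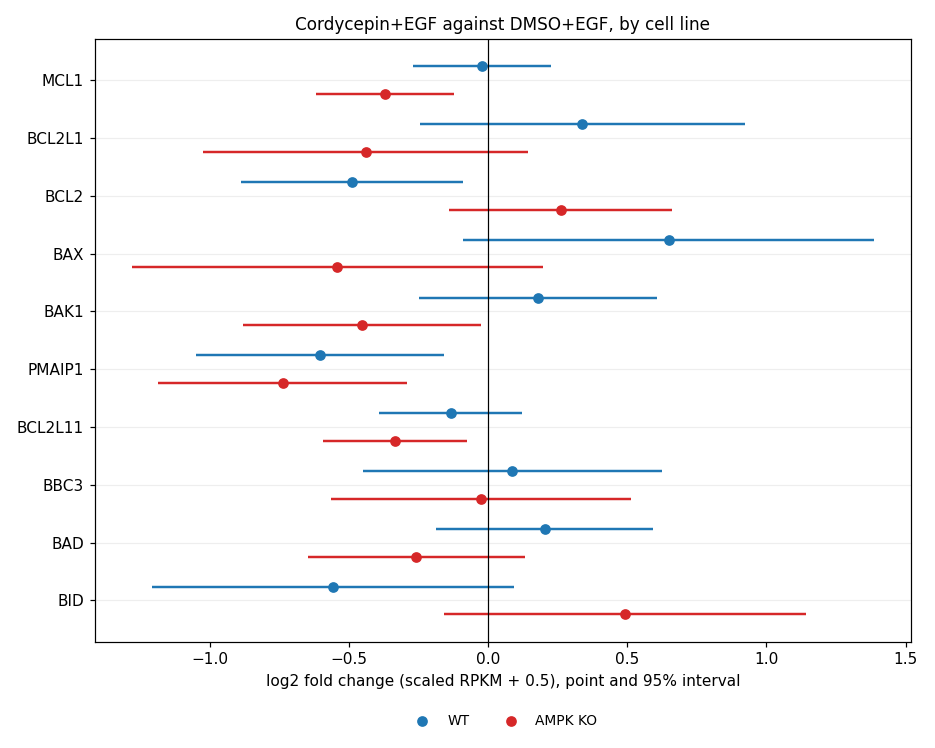
Log2 fold change of cordycepin+EGF against DMSO+EGF (horizontal axis, scaled RPKM + 0.5) for each gene (vertical axis) in WT (blue) and AMPK KO (red), with bars for the 95% interval from limma. PMAIP1 lies at -0.60 and -0.74 with both intervals below 0, and BAX lies at 0.65 and -0.54 on opposite sides of 0.

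Ratios of 2 transcripts within a library do not depend on the scaling of that library. PMAIP1 to MCL1 stood at 1.42 and 1.32 in WT with DMSO+EGF and at 0.90 and 0.92 with cordycepin. In AMPK KO it stood at 1.55 and 1.42 in DMSO+EGF and at 0.93 and 1.42 with cordycepin, so that replicate 3 with cordycepin lay next to the lower of its controls. BAX to BCL2 stood at 10.0 and 12.03 in WT with DMSO+EGF and at 23.9 and 28.4 with cordycepin. In AMPK KO it stood at 25.9 and 31.2 in DMSO+EGF and at 16.7 and 14.8 with cordycepin. With cordycepin this ratio was therefore above the EGF controls in WT and below them in AMPK KO. The WT DMSO libraries were far apart, at 8.13 and 27.8.

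**Figure D3:**
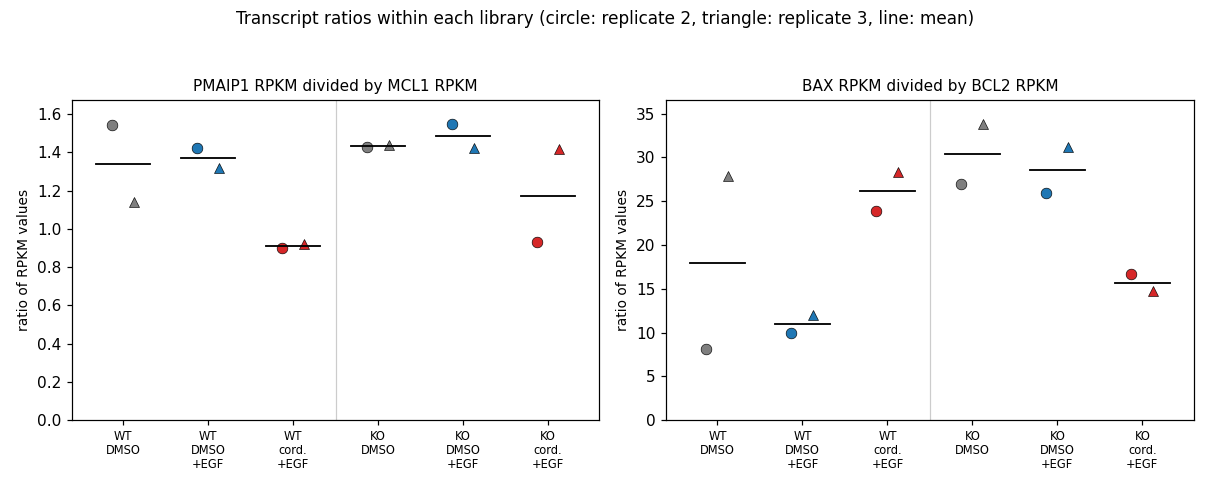
Ratio of RPKM values within each library (vertical axes, no unit, starting at 0) by group, for PMAIP1 to MCL1 (left) and BAX to BCL2 (right), with circles for replicate 2, triangles for replicate 3 and lines for the mean. The PMAIP1 to MCL1 ratio lies between 0.90 and 0.93 in 3 of the 4 cordycepin libraries and at 1.14 or above in all others.

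EGF was set against DMSO to see which members differed with the growth factor. MCL1 was a little higher with EGF in both lines, without overlap. It had 31.5 and 34.1 RPKM in WT DMSO and 35.7 and 41.6 with EGF, a log2 difference of 0.20 (adjusted p = 0.551, SE 0.109), and 0.25 without WT DMSO replicate 3. The AMPK KO libraries had 37.7 and 39.6 RPKM in DMSO and 43.9 and 42.4 with EGF, which gave 0.17 (adjusted p = 1.00, SE 0.109). The interval of the difference between the lines ran from -0.38 to 0.32. PMAIP1 was placed likewise, with 48.7 and 38.7 RPKM in WT DMSO, 50.8 and 54.8 with EGF, 53.9 and 56.9 in AMPK KO DMSO, and 68.1 and 60.3 with EGF. Its log2 fold changes were 0.25 (adjusted p = 0.672) and 0.22 (adjusted p = 1.00), and the WT value was 0.08 without WT DMSO replicate 3.

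BBC3, which encodes PUMA, and BAD, whose product is held inactive by phosphorylation under survival signals, were the only members with an unadjusted p under 0.05 for EGF, in WT. BBC3 had 2.12 and 3.98 RPKM in WT DMSO and 4.52 and 4.62 with EGF, and in AMPK KO 3.71 and 4.88 in DMSO and 3.79 and 3.21 with EGF. Its log2 fold change in WT was 0.54 (adjusted p = 0.512, SE 0.238). BAD had 3.40 and 4.07 RPKM in WT DMSO and 5.26 and 5.05 with EGF, a log2 fold change of 0.40 (adjusted p = 0.511, SE 0.172). These are the members of highest GC content, 69.7% and 66.3%, and the log2 fold change of EGF in WT correlated with GC content across genes at 0.304. After centring within GC bins BBC3 stood at 0.23 and BAD at 0.08. For BBC3 the value was 0.92 without WT DMSO replicate 3 and 0.16 without replicate 2. The difference of the EGF effect between the lines was -0.79 for BBC3 and -0.69 for BAD, both with an adjusted p of 0.570, and -0.29 and -0.19 after centring. For BBC3 this difference was -1.17 without WT DMSO replicate 3 and -0.40 without replicate 2. BCL2L11 had 10.1 and 11.2 RPKM in WT DMSO and 10.2 and 10.6 with EGF, and 10.9 and 9.70 against 9.98 and 11.03 in AMPK KO, with intervals of -0.32 to 0.20 and -0.22 to 0.29. BAX, BAK1, BCL2, BCL2L1 and BID had log2 fold changes between -0.18 and 0.29 in WT and between -0.13 and 0.05 in AMPK KO. Leaving out WT DMSO replicate 3 turned the direction in WT for BAX (0.47), BCL2L1 (0.28), BCL2L11 (0.0030) and BID (-0.15), and moved BCL2 from 0.27 to 0.04 and BAK1 from 0.17 to 0.36. Without replicate 2, BAX was at -0.74, BCL2L1 at -0.63, BID at 0.74 and BAK1 at -0.02.

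In counts, 2 members (BBC3 and BAD) had an unadjusted p under 0.05 for EGF in WT, where 9.72% of all genes did and 0.0227% passed the adjusted test. In AMPK KO there was no such member, where 2.42% of all genes did and 0.0136% passed. For the difference between the lines there were 2, where 8.69% of all genes did and 0% passed. The groups did not overlap for 5 members in WT and 2 in AMPK KO, against 36.7% and 38.8% of all genes.

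AMPK KO was set against WT at each treatment to see which members differed between the lines. BAX had the highest log2 fold change in DMSO and in DMSO+EGF. It had 23.2 and 54.8 RPKM in WT DMSO and 65.0 and 78.4 in AMPK KO DMSO. On the log2 scale AMPK KO was higher by 0.97 (adjusted p = 0.154, SE 0.326), by 1.57 without WT DMSO replicate 3 and by 0.36 without replicate 2. Each of the last 2 values rests on 1 WT DMSO library. In DMSO+EGF, where both pairs of replicates lay close together, it had 30.1 and 36.5 RPKM in WT and 61.8 and 68.3 in AMPK KO, or 33.3 ± 4.52 against 65.0 ± 4.60 (SD, n = 2). The log2 fold change was 0.98 (adjusted p = 0.128, SE 0.326), with 0.85 to 1.10 when 1 library was left out. The adjusted p was 0.0238 with voom, 0.00815 with array weights and 0.0342 in a fit of only these groups. Under these settings 2325, 5041 and 2215 of all genes passed, against 383 in the analysis reported. With cordycepin+EGF the BAX libraries overlapped, at 44.2 and 58.2 RPKM in WT and 45.9 and 40.3 in AMPK KO (-0.21, adjusted p = 0.788).

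BID was on the other side. It had 4.65 and 2.30 RPKM in WT DMSO and 2.16 and 2.07 in the AMPK KO DMSO libraries, a log2 difference of -0.56 (adjusted p = 0.294) that was -0.9998 without WT DMSO replicate 3 and -0.11 without replicate 2. In DMSO+EGF it had 4.68 and 3.82 RPKM in WT and 2.45 and 1.95 in AMPK KO, a log2 fold change of -0.80 (adjusted p = 0.149, SE 0.287). With voom and array weights the adjusted p was 0.0310 and 0.0155, where 2325 and 5041 of all genes passed. BAK1 had 9.19 and 12.2 RPKM in WT DMSO and 13.9 and 18.2 in AMPK KO DMSO (0.54, adjusted p = 0.162), with 0.73 without WT DMSO replicate 3 and 0.35 without replicate 2. BAD had 3.40 and 4.07 RPKM in WT DMSO and 5.78 and 6.96 in AMPK KO DMSO (0.68, adjusted p = 0.0968). Across genes, the log2 fold change in DMSO correlated with GC content at 0.285. After centring within GC bins it was 0.32 for BAD, 0.33 for BAK1, 0.75 for BAX and 0.10 for BBC3. The centred value was 0.295 for MCL1, 0.48 for PMAIP1, -0.11 for BCL2L1 and -0.55 for BID. In cordycepin+EGF, BCL2 was at 0.42 (adjusted p = 0.343) and BAD at -0.47 (adjusted p = 0.303). MCL1 had log2 fold changes of 0.21, 0.18 and -0.17 in the 3 treatments, and PMAIP1 of 0.33, 0.29 and 0.16, the last turning to -0.14 without AMPK KO cordycepin+EGF replicate 3. In DMSO, leaving out WT DMSO replicate 3 moved PMAIP1 to 0.16, BBC3 from 0.46 to 0.84, BCL2L1 from 0.05 to 0.51, BCL2 from -0.03 to -0.26 and BCL2L11 from -0.07 to -0.0056. Without replicate 2 these were 0.49, 0.07, -0.40, 0.20 and -0.14.

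In counts, 3 members (BAX, BAK1 and BAD) had an unadjusted p under 0.05 in DMSO, where 21.3% of all genes did and 0.44% passed the adjusted test. Without WT DMSO replicate 3 only 1 WT library is left in DMSO, so effect sizes alone are given for that fit. They were 0.84 for BBC3, 1.57 for BAX, 0.79 for BAD and -0.9998 for BID. In DMSO+EGF 2 members (BAX and BID) had an unadjusted p under 0.05, where 22.5% of all genes did and 1.74% passed. In cordycepin+EGF there were also 2 (BCL2 and BAD), where 13.7% of all genes did and 0.118% passed. The groups did not overlap for 6 members in DMSO, 8 in DMSO+EGF and 7 in cordycepin+EGF, against 48.5%, 62.9% and 45.8% of all genes.

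**Figure D4:**
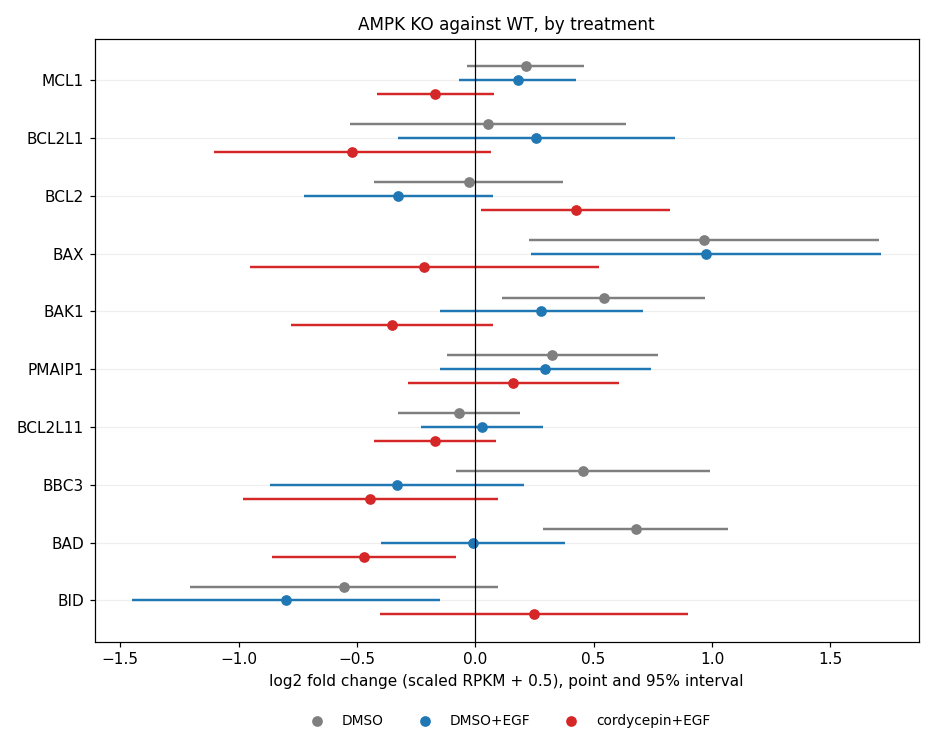
Log2 fold change of AMPK KO against WT (horizontal axis, scaled RPKM + 0.5) for each gene (vertical axis) in DMSO (grey), DMSO+EGF (blue) and cordycepin+EGF (red), with bars for the 95% interval from limma. BAX lies at 0.97 and 0.98 in DMSO and DMSO+EGF and at -0.21 with cordycepin+EGF, and BID lies at -0.56, -0.80 and 0.25.

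Several members varied with a pattern that ran through the whole table. The first principal component of the 7152 protein-coding genes with a mean of at least 5 RPKM, members left out, held 46.2% of the variance of log2 values. Its score ran from 0.50 in WT DMSO replicate 2, 0.40 and 0.30 in WT DMSO+EGF and 0.25 in AMPK KO cordycepin+EGF replicate 3 down to -0.40 in AMPK KO DMSO replicate 3. WT DMSO replicate 3, at -0.10, lay apart from replicate 2. The log2 values of BAX correlated with this score at -0.98 over the 12 libraries, and 0.154% of the 7152 genes had a lower correlation. BID correlated at 0.95, BAK1 at -0.85, BCL2 at 0.74, BCL2L1 at -0.71, BAD at -0.67 and MCL1 at -0.58. Of the 7152 genes, 29.3% had a lower correlation than MCL1, 22.7% than BAD, 19.4% than BCL2L1, 7.998% than BAK1, 88.7% than BCL2 and 99.2% than BID. PMAIP1 (-0.14) and BCL2L11 (-0.19) had the correlations of smallest size, followed by BBC3 (-0.40), with 54.8%, 52.1% and 41.6% of genes lower. PMAIP1 and BCL2L11 were lower with cordycepin than with DMSO+EGF without overlap in both lines. From DMSO+EGF to cordycepin+EGF the score fell in WT, to -0.02 and -0.22. In AMPK KO it rose, from -0.20 and -0.28 to 0.08 and 0.25. A gene lower in both lines can therefore hardly follow this score, so their small correlations are no separate finding. These correlations describe 12 libraries of 6 groups that share libraries across comparisons, and the part of this component in the differences of BAX, BID and BCL2 was not tested.

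**Figure D5:**
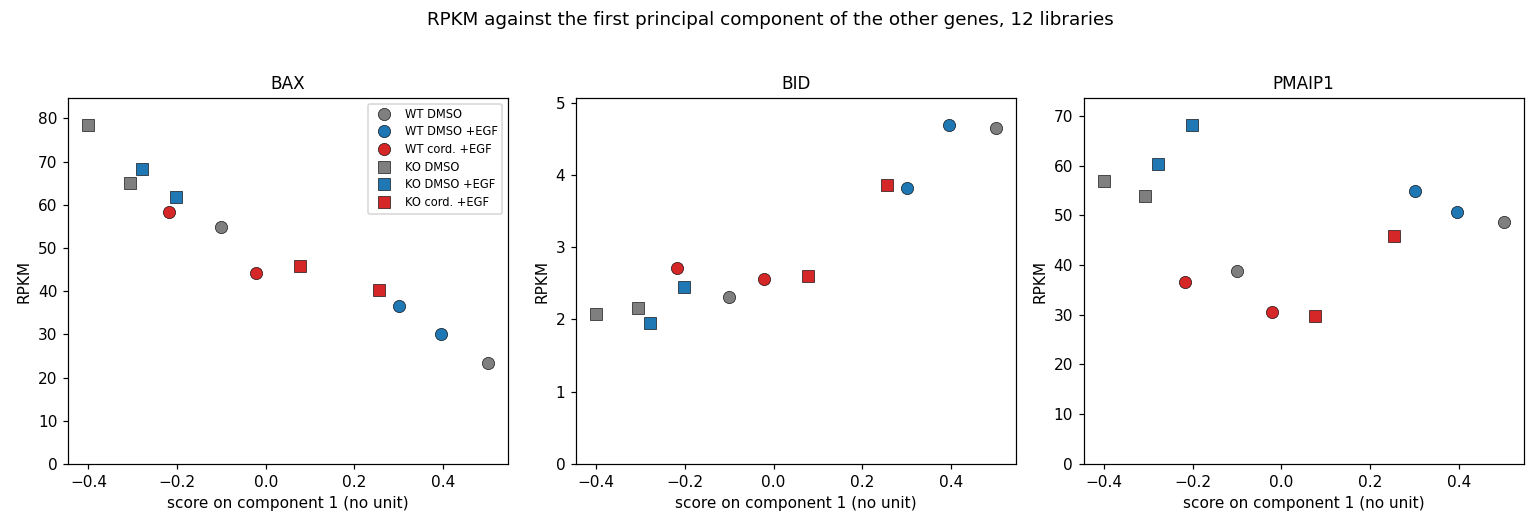
RPKM of BAX, BID and PMAIP1 (vertical axes, starting at 0) against the score of each of the 12 libraries on the first principal component of the other genes (horizontal axes, no unit), with circles for WT and squares for AMPK KO, grey for DMSO, blue for DMSO+EGF and red for cordycepin+EGF. BAX runs from 78.4 RPKM at the lowest score to 23.2 at the highest, BID from 2.07 to 4.65, and PMAIP1 shows its 3 lowest values in cordycepin libraries, at scores of -0.22, -0.02 and 0.08.

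Correlations between members across the 12 libraries, in log2 values, are given for selected pairs. BAX correlated with BID at -0.94 and with BAK1 at 0.83, and BCL2 correlated with BCL2L1 at -0.87. MCL1 correlated with PMAIP1 at 0.60 and with BAK1 at 0.80. BAX, BID and BAK1 also correlated with the first component of the other genes, at -0.98, 0.95 and -0.85. Pairs of genes outside the family were not examined, so these values are not shown to be particular to it. The 5 protein-coding genes whose log2 values were most like those of MCL1, of 7152 with a mean of at least 5 RPKM, were NRDE2 (0.87), GID8 (0.86), MIS12 (0.86), TXN2 (0.86) and GPX4 (0.85). Without WT DMSO replicate 3 these correlations were 0.85 to 0.88.

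The wider apoptosis pathway was read from lists of genes set by function, with genes named where their unadjusted p was under 0.05 and their log2 fold change at least 0.5 in size. Of the 13 other family genes, BCL2A1 and BCL2L10 were not among the genes listed and BCL2L15 was below the filter. Of the 10 tested, 0 passed the adjusted test in any comparison. BNIP3L, a mitophagy receptor, had 22.0 and 21.7 RPKM in AMPK KO with DMSO+EGF and 12.1 and 12.4 with cordycepin (-0.76, adjusted p = 0.0986). BIK, a BH3-only gene, had 1.75 and 0.457 against 2.15 and 3.05 RPKM in the same groups (1.10, adjusted p = 0.179). BCL2L14 there was at 0.59 (adjusted p = 0.173) with a mean of 0.504 RPKM over all libraries. HRK, a further BH3-only gene, had 5.16 and 5.22 RPKM in WT with DMSO+EGF and 2.81 and 2.71 in AMPK KO (-0.79, adjusted p = 0.0795). BOK, a relative of BAX, had 0.241 and 0.185 RPKM in WT DMSO and 0.800 and 0.747 in AMPK KO DMSO (0.82, adjusted p = 0.0730). BIK, with only 951 exon bases, and BOK had means of 1.91 and 0.587 RPKM over all libraries. Their lowest values rest on few reads, so these fold changes are uncertain. BCL2L12 was at 0.64 for EGF in WT (adjusted p = 0.438).

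Of the 17 genes tested for the apoptosome, the caspases and their inhibitors, 1 passed the adjusted test, in 1 comparison. APAF1, the scaffold of the apoptosome, was higher in AMPK KO than in WT under DMSO+EGF, with 12.2 and 12.9 against 6.63 and 7.20 RPKM (0.83, SE 0.144, adjusted p = 0.0362). With cordycepin+EGF in AMPK KO it had 7.25 and 7.54 RPKM (-0.68 against DMSO+EGF, adjusted p = 0.0644). APAF1 was not followed over the alternative settings or with 1 library left out, so how firm this call is was not tested. The number of all genes called in this comparison depended on the setting. It was 383 in the analysis reported, 130 with replicate blocks fitted separately per line, 161 after centring within GC bins and 5041 with array weights. XIAP, the caspase inhibitor, had 18.1 and 16.1 RPKM in AMPK KO with DMSO+EGF and 10.1 and 10.2 with cordycepin (-0.68, adjusted p = 0.107). BIRC5 (survivin) had 31.7 and 29.9 RPKM in WT with DMSO+EGF, 14.6 and 17.5 with cordycepin, and 14.3 and 10.6 in AMPK KO with DMSO+EGF. Its log2 fold change was -0.88 for cordycepin in WT (adjusted p = 0.291) and -1.27 for AMPK KO against WT (adjusted p = 0.0913). CASP9, the caspase that APAF1 activates, was at 0.88 for AMPK KO against WT in DMSO (adjusted p = 0.0671) and 0.57 in DMSO+EGF (adjusted p = 0.122). HTRA2, a mitochondrial protease gene, was at 0.73 for cordycepin in WT (adjusted p = 0.267), at 0.75 for AMPK KO against WT in DMSO (adjusted p = 0.144) and at -0.70 in cordycepin+EGF (adjusted p = 0.282). ENDOG, a mitochondrial nuclease gene, was at -0.67 for AMPK KO against WT in cordycepin+EGF (adjusted p = 0.340). DIABLO, whose product counters XIAP, was at 0.50 for cordycepin in AMPK KO (adjusted p = 0.123). The difference of the cordycepin effect between the lines was -0.95 for APAF1, -0.96 for XIAP, -0.87 for CASP9, 1.63 for BIRC5, -0.82 for HTRA2 and -0.55 for BIRC2, with adjusted p values of 0.122 to 0.216.

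Of the 8 genes for the turnover of MCL1 protein, 0 passed the adjusted test in any comparison. The deubiquitinase gene USP13 had 3.36 and 3.36 RPKM in WT with DMSO+EGF and 1.94 and 1.68 with cordycepin (-0.71, adjusted p = 0.269), and its difference between the lines was 1.07 (adjusted p = 0.145). Of the 10 genes for transcription regulators of the family, 0 passed either. DDIT3 (CHOP), a stress-induced regulator, was at 0.88 for cordycepin in WT (adjusted p = 0.267) and at -1.36 for the difference between the lines (adjusted p = 0.127). E2F1 was at 0.53 for AMPK KO against WT in DMSO (adjusted p = 0.157) and at -0.51 in cordycepin+EGF (adjusted p = 0.293). CREB1 was at 0.56 for cordycepin in AMPK KO (adjusted p = 0.179).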

How the data were processed

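RNA from HEK293 cells was sequenced as stranded, ribosomal RNA-depleted libraries (paired reads of 150 bases). The authors mapped the reads to GRCh38.p13, counted them per gene and deposited RPKM values for 12 libraries. Libraries were grouped by their labels, and replicate 1 of each condition, discarded by the authors, was not analysed here. The table also held 2 rows without a gene identifier, which were dropped. Identifiers were matched to GENCODE release 44 (26029 of 26058). RPKM steps gave whole reads in all 12 libraries for 25082 genes (96.25%, tolerance 0.05 reads), BCL2L11 being the only member without them.

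Values were divided by the upper quartile of each library, brought back to a common level and log2 transformed with a pseudocount of 0.5, so fold changes of low genes are understated. limma 3.58.1 in R 4.3.3 was fitted to 22067 genes (mean RPKM at least 0.5) over all 12 libraries, with a trended variance and 2-sided tests, and p values were adjusted by Benjamini-Hochberg separately for the 9 comparisons. The script was tested on simulated data. Alternatives were pseudocounts of 0.1 and 1, no filter or a mean RPKM of 1, unscaled RPKM, median-ratio scaling, only the compared groups, replicate blocks, no variance trend, array weights, voom on recovered reads and leaving out each library. Centring within 20 bins of transcript GC content was added after seeing the data. The precision is limited by 2 libraries a group. Named genes were the 10 members, listed genes whose unadjusted p was under 0.05 with a fold change of 0.5 or more on the log2 scale (at most 6 per list and comparison), the 2 knockout targets, and the 5 genes most correlated with MCL1. Members and lists were chosen with earlier results of these data known. Results for some listed genes are not reported here.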

Additional observations from a re-analysis of the deposited data

Results flagged for a closer look

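For 5 members, in RPKM scaled by the upper quartile, the cordycepin+EGF libraries lay on opposite sides of the DMSO+EGF libraries in the 2 cell lines. Both libraries of one line were above its controls and both of the other below, as for 19.2% of all genes tested. In unscaled RPKM the WT libraries of BAD overlapped, at 5.259 and 6.46 with cordycepin+EGF against 5.265 and 5.05 in DMSO+EGF. The difference of the cordycepin effect (AMPK KO minus WT, log2) was 0.75 for BCL2 (adjusted p = 0.151), -0.78 for BCL2L1 (adjusted p = 0.256), -1.19 for BAX (adjusted p = 0.191), -0.46 for BAD (adjusted p = 0.305) and 1.05 for BID (adjusted p = 0.191), none past the threshold over all genes (limma). Of these, BAX and BID also had the highest correlations in size with the first principal component of the other genes, and the part of that component was not tested. Groups of 2 libraries are too small for a test of single outlying samples. After centring within GC bins the WT value of BAD was -0.0033 and its difference between the lines -0.37.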

How the results depend on the processing

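No member was called in any comparison in the analysis reported, and most alternatives gave the same. With voom on recovered reads, 1 member was called for cordycepin in WT (BCL2), 1 for cordycepin in AMPK KO (PMAIP1), 1 for AMPK KO against WT in DMSO (BAX), 2 in DMSO+EGF (BAX and BID) and 3 for the cordycepin difference between the lines (BCL2, BAX and BID). With array weights, 1 was called for cordycepin in AMPK KO (PMAIP1) and 2 for AMPK KO against WT in DMSO+EGF (BAX and BID). With only the compared groups, 1 was called in DMSO+EGF and 1 for the cordycepin difference (BAX in both). Leaving out 1 library leaves 1 in its group, and the spread is then taken from the other groups. Calls from those fits are therefore not given. The direction of MCL1 was reversed for cordycepin in WT without DMSO+EGF replicate 3 (0.07455) and without cordycepin+EGF replicate 2 (0.07383), and for the EGF difference between the lines without WT DMSO replicate 2 (0.01494) and without WT DMSO+EGF replicate 3 (0.06343). The cause was not tested. For MCL1 these values ran from -0.121 to 0.07455 and from -0.1321 to 0.06343 when 1 library was left out. Every alternative kept the direction of MCL1 and of each member with an unadjusted p under 0.05 (363 values on the same side of the threshold and 13 newly past it). With 1 library left out, 4 such values turned, which are the MCL1 values above.

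The replicate numbers were not shown to pair the libraries, since the correlation of replicate differences was 0.136 to 0.314 within WT but -0.122 to 0.0307 within AMPK KO. With a replicate block MCL1 was at -0.37 for cordycepin in AMPK KO (adjusted p = 0.0873), and the block called no member. The number of all genes called depended strongly on the method. For cordycepin in WT it was 1 in the analysis reported, 16 with array weights and 827 with voom, and in AMPK KO it was 104, 1193 and 1264. For AMPK KO against WT it was 97, 7 and 1665 in DMSO, 383, 5041 and 2325 in DMSO+EGF, and 26, 25 and 298 in cordycepin+EGF, and for the cordycepin difference between the lines it was 0, 1457 and 1975. With only the compared groups these counts were 0, 0, 1, 2215, 2 and 1128 in the same order. For EGF in WT, 5 genes were called, and 9 with voom. A replicate block within each cell line called 18 genes for cordycepin in AMPK KO and 130 for AMPK KO against WT in DMSO+EGF, and centring within GC bins called 161 in the latter. BAD, with 28 reads in WT DMSO replicate 3, was the member most limited by depth.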
